A study of Mus musculus with 4 samples.

Results

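The metabotropic glutamate receptor genes Grm2, Grm3, Grm4, Grm5, Grm7 and Grm8 were followed through single-nucleus RNA-seq of cells generated in the adult mouse dentate gyrus. They were taken as a list of 6 named genes among the 45706 features counted, and all 6 had at least 1 UMI (unique molecular identifier, 1 captured transcript) in a nucleus that the authors kept. Nuclei were sorted from left dentate gyri of male and female CAGfloxStop-Sun1/sfGFP mice with a tamoxifen-inducible Cre, on a C57BL/6J background, given tamoxifen at 6 to 8 weeks of age. Every library shares this genotype and induction, and the libraries differ in the time since tamoxifen, which was 1 week (w1), 2 weeks (w2), 4 weeks (w4) or 8 weeks (w8). Each library is 1 pool of 4 mice, so that no difference between weeks has a replicate. The reporter marks the nuclear envelope of cells in which Cre was active at induction and of their progeny.

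Metabotropic glutamate receptors are G protein-coupled receptors that answer glutamate through second messengers and not through an ion pore. Group I receptors (here Grm5) couple to Gq and phospholipase C and sit mostly at postsynaptic sites, whereas group II receptors (Grm2 and Grm3) and group III receptors (Grm4, Grm6, Grm7 and Grm8) couple to Gi/o, lower cAMP and often restrain transmitter release. In the hippocampus they are known from granule cells and their mossy fibre terminals, and Grm3 and Grm5 are also known from glia.

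On GRCm38 the members differ widely in length, which matters because intronic UMIs were counted. Grm5 (ENSMUSG00000049583) spans chromosome 7 from 87584168 to 88134907 on the plus strand, 551 kb. Grm7 (ENSMUSG00000056755) spans chromosome 6 from 110645581 to 111567230 on the plus strand, 922 kb, and Grm8 (ENSMUSG00000024211) the same chromosome from 27275119 to 28135178 on the minus strand, 860.1 kb. Grm3 (ENSMUSG00000003974) spans chromosome 5 from 9485541 to 9725170 on the minus strand, 239.6 kb. Grm4 (ENSMUSG00000063239) lies on chromosome 17 from 27422387 to 27521403 on the minus strand, 99.0 kb. Grm2 (ENSMUSG00000023192) is by far the shortest, on chromosome 9 from 106643095 to 106656082 on the minus strand, 12.99 kb. Counts are therefore compared between clusters for 1 gene, and between genes only after division by gene length. An antisense gene overlaps the end of Grm2 by 0.47 kb (Gm28111, 125 UMIs in all kept nuclei) and another overlaps the start of Grm7 by 0.336 kb (Gm20387, 411 UMIs). These UMIs are counted over the whole antisense genes, and how UMIs of the shared stretches were assigned was not tested.

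Promoter sequence from RefSeq (GRCm38.p6) was at hand for 4 of the 6 members. The 250 bases before the annotated start are shown for 3 of them as examples of a gene with its highest level in a glial cluster (Grm3) and of genes called higher in mature granule cells than in RGL (Grm7 and Grm2). The windows of Grm8, which had few UMIs, are described by their counts only. They cover chr5:9725353-9725602 on the minus strand, chr6:110645262-110645511 on the plus strand (the first of the Grm7 starts) and chr9:106656110-106656359 on the minus strand. Capitals mark the GC box GGGCGG, searched on both strands.
Grm3: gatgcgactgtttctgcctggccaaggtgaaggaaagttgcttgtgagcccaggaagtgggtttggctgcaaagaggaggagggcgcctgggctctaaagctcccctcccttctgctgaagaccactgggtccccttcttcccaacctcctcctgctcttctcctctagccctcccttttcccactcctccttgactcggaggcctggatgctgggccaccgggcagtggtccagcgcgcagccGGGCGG
Grm7: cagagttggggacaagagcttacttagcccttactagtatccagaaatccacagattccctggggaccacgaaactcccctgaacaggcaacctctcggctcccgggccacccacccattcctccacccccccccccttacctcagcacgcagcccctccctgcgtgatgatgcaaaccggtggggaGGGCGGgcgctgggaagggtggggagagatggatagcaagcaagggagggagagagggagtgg
Grm2: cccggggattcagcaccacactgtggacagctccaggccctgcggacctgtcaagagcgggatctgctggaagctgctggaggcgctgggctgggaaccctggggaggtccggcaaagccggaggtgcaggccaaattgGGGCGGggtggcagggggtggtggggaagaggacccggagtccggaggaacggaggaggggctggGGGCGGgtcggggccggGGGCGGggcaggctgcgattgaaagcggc
The Grm2 window held 3 GC boxes and those of Grm3 and Grm7 held 1 each, where 32.7% of all 32851 such windows held at least 1. Neither the cAMP response element TGACGTCA (1.55% of windows) nor the E-box CAGATG (14.4%) occurred in the 3 windows. The share of G and C was 71.2% for Grm2, 62.4% for Grm3 and 62.0% for Grm7, against a median of 52.4%. The 3 windows of Grm8 had 43.6%, 54.4% and 68.4% of G and C, and only the last held a GC box. These matches describe letters only, since no measurement of factor binding was made.

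The authors placed 14367 of 17046 barcodes in 13 clusters: radial glia-like cells (RGL), neural progenitor cells (NPC), neuroblasts (NB1 and NB2), immature (GCimm1 and GCimm2), young (GCyoung) and mature (GCmat1 and GCmat2) granule cells, astrocytes (Astro), oligodendrocyte precursor cells (OPC), oligodendrocytes (Oligo) and pericytes (Peri). Kept nuclei held between 13227971 UMIs (w1) and 28595331 UMIs (w8) per library, and 22 barcodes of kept nuclei occurred in more than 1 library. All 5 astrocyte, 5 NPC, 4 OPC and 5 oligodendrocyte markers peaked in their own cluster, as did 3 of 5 RGL markers. The 5 neuroblast markers peaked in NB1 (3) or NB2 (2). Of 4 immature granule cell markers 2 peaked in GCimm2, 1 in GCimm1 and 1 (Dcx) in NB1. Of 5 mature granule cell markers 2 peaked in GCyoung, 1 in GCmat1, 1 in GCmat2 and 1 (Prox1) in NB1. In the cluster labelled pericytes all 5 markers of vascular leptomeningeal cells were highest, with 3408 counts per 1000000 (CPM) in sum, while the 4 pericyte markers summed to 111 CPM and Rgs5 was at 0, so that its label is not used as a cell type here. Its nuclei came from w1 (18), w2 (40) and w4 (2) and not from w8, so that it has no counterpart for that library.

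Levels are UMIs of the gene per 1000000 UMIs of the same nuclei (CPM), with exact 95% Poisson intervals that cover counting error only. In GCmat1, Grm5 was at 2327 CPM (2310 to 2345) and Grm7 at 2140 (2123 to 2157), against 55.4 and 17.05 in RGL. Grm3 was highest in Astro, at 1199 (1085 to 1322), followed by Oligo with 997 (869 to 1138) and RGL with 597 (577.5 to 616). Over all its nuclei GCmat1 had 23.1 CPM of Grm2. For Grm8, NB2 had 30.5 CPM (25.15 to 36.7) and GCmat2 27.6 (19.95 to 37.1), and the libraries within a cluster differed widely. Grm4 had 67 UMIs in 61 of the 14367 nuclei. These levels are not divided by gene length, and a comparison between members per length is given further on.

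**Figure D1:**
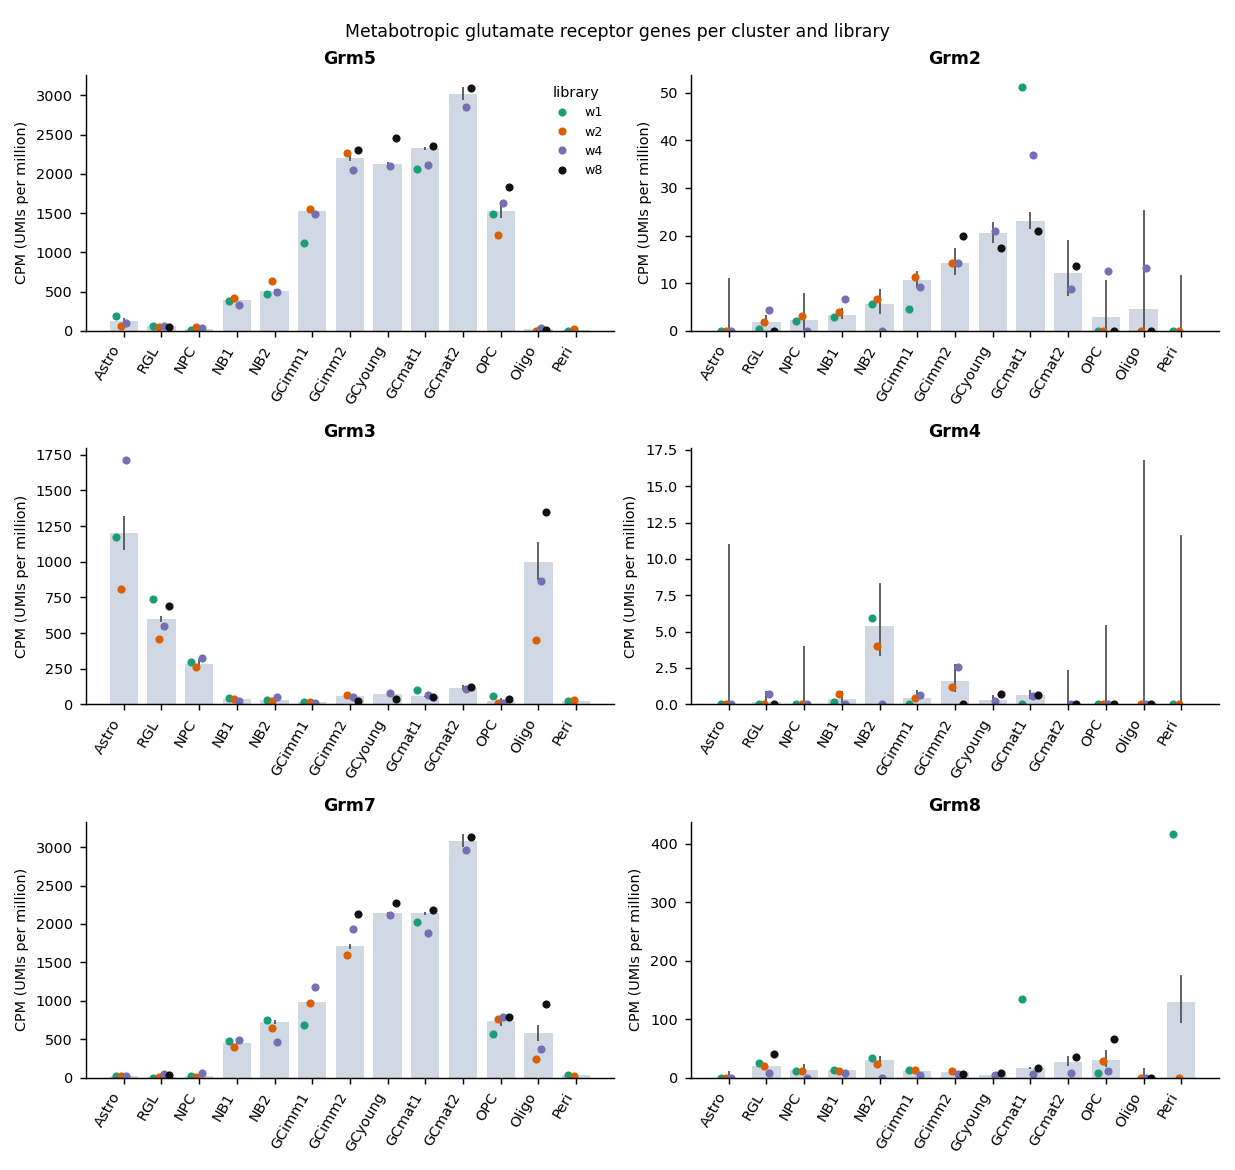
Level of each receptor gene (CPM, linear axes starting at 0) in the 13 clusters. Bars give all kept nuclei with exact 95% Poisson intervals, and points give each library (w1, w2, w4, w8) with at least 10 nuclei in the cluster. Grm5 and Grm7 are higher in mature granule cells than in NB1 and are also high in OPC, Grm3 is high in Astro, RGL and Oligo, and the high Grm8 point in Peri comes from 1 nucleus.

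Differences between clusters were tested on UMI counts summed per library and cluster (edgeR quasi-likelihood test, library and cluster as terms), and a gene was called where it differed 1.5-fold or more with p, adjusted over all genes by the Benjamini-Hochberg method, no higher than 0.05. Grm4 did not pass the filter on low counts, so that 5 members entered each comparison. The authors built the clusters from the same expression values, and the p-values therefore describe how the clusters differ. From Astro to RGL, 1 member fell and none rose, where 4.82% of the 13513 genes fell and 4.77% rose. From RGL to NPC 3 members fell and none rose, against 15.9% and 13.7% of all genes. From NPC to NB1, 2 members rose and 1 fell (background 14.7% up and 14.6% down). The comparison of NB1 with NB2 had 1 member up, where 1.81% of genes rose and 1.13% fell. From NB1 to GCimm1 3 members rose and 1 fell (7.76% and 4.75%), and from GCimm1 to GCimm2 3 rose and none fell (6.52% and 2.91%). From GCimm2 to GCyoung, where 9.27% of genes rose and 9.62% fell, 1 member rose. From GCyoung to GCmat1 edgeR called 0 of 5 members and DESeq2 also 0, where edgeR called 1.60% of genes up and 2.25% down. Before adjustment 2 members had an edgeR p under 0.05. This is a looser limit, for which no share of all genes is given, so nothing is read from it. Between the mature clusters GCmat1 and GCmat2, 1 member was higher and 1 lower in GCmat2 (3.01% and 4.28%). From RGL to GCmat1 3 members rose and 1 fell, in a comparison that called 24.6% of genes up and 24.9% down. The median log2 change over all genes was within 0.1 of 0 except from Astro to RGL (0.27), GCmat1 to GCmat2 (-0.14), RGL to OPC (-0.14) and OPC to Oligo (-0.43), and the values below are not corrected for it. The fit scales each sum by TMM normalization and has a library term, whereas the printed CPM are unscaled. Its log2 values can therefore differ from ratios of these CPM.

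**Figure D2:**
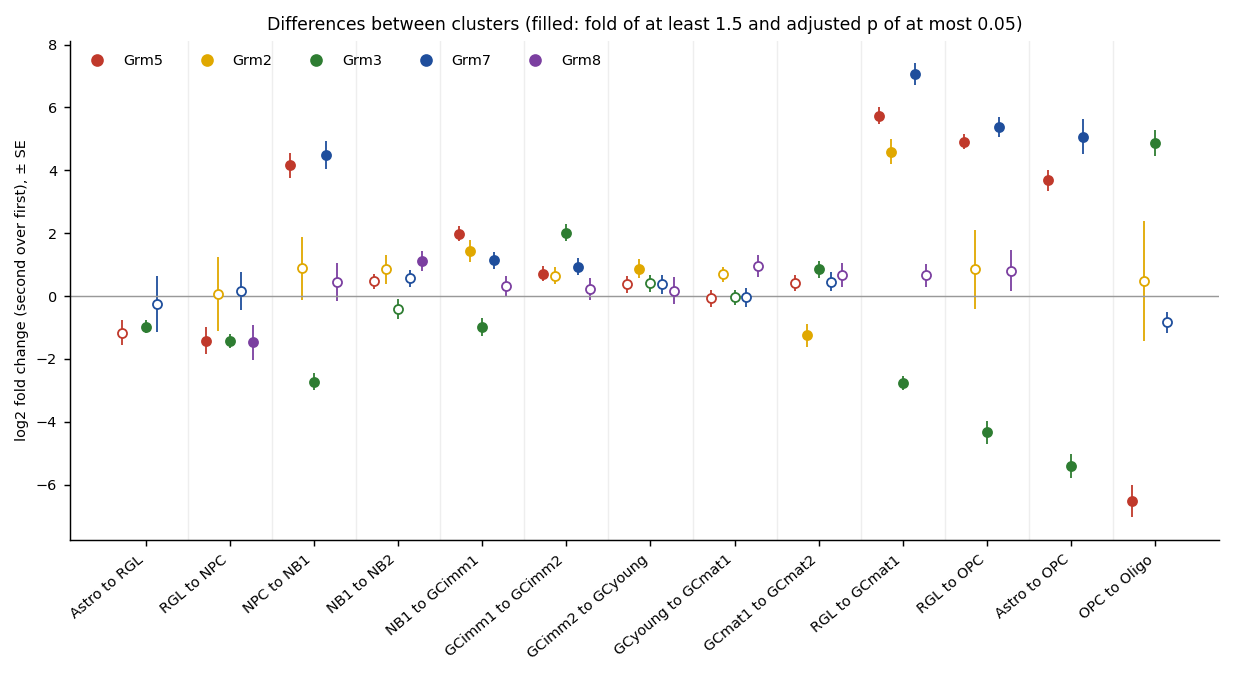
Log2 fold change (second cluster over first) with its standard error for 5 receptor genes in 13 comparisons of clusters, filled where the fold was at least 1.5 and the adjusted p at most 0.05. Values against a cluster without any UMI of the gene (Grm2 and Grm8 against Astro, Grm8 against Oligo) are left out. Grm5 and Grm7 both rise steeply from NPC to NB1, where Grm3 falls, and Grm3 rises from GCimm1 to GCimm2.

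Grm5 encodes the Gq-coupled receptor mGlu5, the group I member of the list. In NPC its level was 4.01 CPM in w1, 52.4 in w2 and 39.3 in w4, and in NB1 it was 382.5, 419 and 334 in the same libraries. Every NB1 sum lay above every NPC sum, by 17.9-fold in the fit (log2 4.16, SE 0.39, adjusted p = 8.22e-13). The size of this rise depended on single libraries, with log2 3.27 without w1, whose NPC sum holds 2 Grm5 UMIs, and 5.495 without w2, while the call held in 12 of 12 alternatives. In GCimm1 the level was 1121 CPM in w1, 1556 in w2 and 1491 in w4, 3.96-fold above NB1 (log2 1.98, SE 0.24, adjusted p = 5.25e-09), and the groups did not overlap. GCimm2 had 2270 (w2), 2045 (w4) and 2298 CPM (w8), all above every GCimm1 sum, and the rise of 1.63-fold had an adjusted p of 0.0492 that passed 0.05 by little. This last call was lost in 4 of 12 alternatives, among them without w2 and without w4, with adjusted p up to 0.333. No later step was called for Grm5. The level was 2098 CPM in w4 and 2454 in w8 in GCyoung, and 2056 in w1, 2118 in w4 and 2359 in w8 in GCmat1. The log2 difference was 0.37 (SE 0.27, adjusted p = 0.370) from GCimm2 to GCyoung and -0.07 (SE 0.26, adjusted p = 0.988) from GCyoung to GCmat1. Over all nuclei the unscaled CPM did not rise from GCimm2 (2201) to GCyoung (2129). GCmat2 held 2856 CPM in w4 and 3091 in w8, the highest Grm5 levels of any sum with at least 10 nuclei, but the difference from GCmat1 did not pass the test (log2 0.41, SE 0.26, adjusted p = 0.465).

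Grm5 UMIs were also found in RGL, at a low level of 55.4 CPM (49.7 to 61.6), where the cluster labelled pericytes had 15.8 (5.13 to 36.9). By library, in RGL it was 60.5 (w1), 48.4 (w2), 60.4 (w4) and 44.6 CPM (w8), and in Astro 192 in w1, 62.3 in w2 and 97.5 in w4. The Astro sums were all above the RGL sum of their library, with a log2 change of -1.17 from Astro to RGL (SE 0.40) and an adjusted p of 0.0525 that missed the threshold. After thinning every nucleus to 2000 UMIs, 8.60% of RGL nuclei held a Grm5 UMI (7.17 to 10.2%, Clopper-Pearson), while 1 of 60 nuclei of the cluster labelled pericytes did (1.67%, 0.0422 to 8.94%), and these intervals overlap. Unthinned, the shares were 12.7% and 6.67%, at medians of 4091 and 5108 UMIs. From RGL to NPC Grm5 fell by 1.41 on the log2 scale (SE 0.44, adjusted p = 0.0105), but w2 went from 48.4 up to 52.4 CPM, and the change was -2.89 without w2, and -0.47 and not called without w1. Thinning also ended the call.

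Among group II genes, Grm3, which encodes mGlu3, had a course with a trough. In Astro it was at 1172 CPM in w1, 810 in w2 and 1712 in w4, and in RGL at 738 (w1), 460 (w2), 550 (w4) and 688.5 CPM (w8). Every Astro sum was above every RGL sum, and Grm3 fell by 0.97 on the log2 scale from Astro to RGL (SE 0.20, adjusted p = 0.000459). Without w4 this change was -0.61 and no longer called. NPC had 299 CPM in w1, 259 in w2 and 328 in w4, below every RGL sum and 2.69-fold lower in the fit (adjusted p = 8.26e-07). NB1 had 42.3, 34.0 and 20.2 CPM in the same libraries, a further fall of 6.59-fold (log2 -2.72, SE 0.26, adjusted p = 1.21e-12), and the sums did not overlap. GCimm1 had 13.7 CPM in w1, 17.9 in w2 and 10.5 in w4, 1.98-fold below NB1 (adjusted p = 0.00747) and without overlap, a call lost in 4 of 12 alternatives, among them without w1. Grm3 was then higher again, at levels under those of Astro, RGL and Oligo. GCimm2 held 66.6 (w2), 47.9 (w4) and 20.0 CPM (w8), the last from 3 UMIs of 28 nuclei. All 3 sums lay above those of GCimm1, the w8 sum by little, and the rise was 4.03-fold (log2 2.01, SE 0.27, adjusted p = 8.84e-08), called in 12 of 12 alternatives. In GCyoung it was 77.8 CPM in w4 and 39.7 in w8, and the log2 difference of 0.41 from GCimm2 (SE 0.27, adjusted p = 0.315) did not pass the test. GCmat1 had 103 CPM in w1, 61.8 in w4 and 54.5 in w8 (log2 -0.04 from GCyoung, SE 0.24). In GCmat2 the level was 104 CPM in w4 and 119 in w8, above GCmat1 of the same library in both, with a log2 difference of 0.86 (SE 0.27, adjusted p = 0.0395). That call was lost without the library term, with DESeq2, after thinning, at a fold of 2 and with all 13 clusters in the fit.

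A Grm3 UMI was found in 23.7% of GCmat1 nuclei, in 75.9% of RGL nuclei and in 10% of nuclei of the cluster labelled pericytes. At 2000 UMIs per nucleus the shares were 9.18% (8.22 to 10.2%), 59.4% (56.8 to 62.0%) and 5.00% (1.04 to 13.9%), so that the interval of the cluster labelled pericytes holds the share in GCmat1. The libraries differ, since 2927 of 3356 GCmat1 nuclei came from w8, where the cluster labelled pericytes has no nuclei. At this depth a nucleus without a Grm3 UMI may still express the gene, so that these shares do not count the nuclei that express it. The trough in GCimm1 was at 3.41% of thinned nuclei. Within GCmat1 of w8, the 216 nuclei without a deposited pseudo-time had 10.8 CPM of Grm3 (7.08 to 15.9), and the 2711 with a pseudo-time had 59.1 (56.0 to 62.3), although the former were deeper, with a median of 10885 against 7846 UMIs. Their Grm2 was 10.8 CPM (7.08 to 15.9) against 21.98 (20.1 to 24.0), whereas Grm5 was at 2475 and 2346 and Grm7 at 2053 and 2188 CPM. These are values of 1 pool without a test.

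Grm2, the second group II gene and known from granule cells and their mossy fibres, had its highest levels in mature granule cells. No UMI was found among 335189 UMIs of Astro, which allows up to 8.95 CPM (3 counts), or 11.0 by the exact interval. RGL held 0.435 (w1), 1.88 (w2), 4.42 (w4) and 0 CPM (w8), from 11 UMIs in all. GCmat1 held 51.2 CPM in w1, 36.9 in w4 and 20.9 in w8, above every RGL sum, and the rise was 24.2-fold (log2 4.60, SE 0.40, adjusted p = 1.62e-14). The log2 change ran from 4.165 (without w1) to 5.62 (without w4) over 12 alternatives. The w1 value of GCmat1 stands on 8 UMIs of 17 nuclei. Between these ends Grm2 was called from NB1 to GCimm1, with 2.83 CPM in w1, 3.91 in w2 and 6.72 in w4 becoming 4.58, 11.2 and 9.23 (log2 1.44, SE 0.35, adjusted p = 0.00179). It was above NB1 in each library, while the sums of the clusters overlapped across libraries. The call was lost without w2 and after thinning to 2000 UMIs per nucleus, with adjusted p up to 0.509 over 12 alternatives. The rise from GCimm2 to GCyoung was called (log2 0.87, SE 0.30, adjusted p = 0.0349). However, w4 went from 14.2 to 20.96 CPM and w8 from 20.0, which stands on 3 UMIs, to 17.4. The call was lost without the library term, with DESeq2, with RLE factors and after thinning. It was also lost at a fold of 2, with all 13 clusters in the fit and without w2. Over all nuclei the unscaled CPM of this step went from 14.3 to 20.6, a smaller rise than the fitted one. Steps on either side did not pass the test, with log2 0.65 (SE 0.28, adjusted p = 0.152) from GCimm1 to GCimm2 and 0.69 (SE 0.24, adjusted p = 0.102) from GCyoung to GCmat1. In GCmat2 Grm2 was at 8.84 CPM in w4 and 13.5 in w8, below GCmat1 of the same library in both, and fell by 1.24 on the log2 scale (SE 0.37, adjusted p = 0.0238). This rests on 19 UMIs in GCmat2 and was lost without the library term, with DESeq2, with RLE factors and after thinning. Without w8, which leaves 1 GCmat2 sum, the value was -2.25.

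Grm2 was spread thinly over nuclei. Its 1371 UMIs lay in 1200 nuclei, 1.14 each, and no nucleus held more than 4. A Grm2 UMI was present in 0.721% of RGL nuclei and 17.1% of GCmat1 nuclei, and at 2000 UMIs per nucleus in 0.437% (0.161 to 0.949%) and 5.18% (4.46 to 5.99%), while 0 of 60 nuclei of the cluster labelled pericytes held one. The upper bound of that 0 is 5.96%, above both thinned shares. Most GCmat1 nuclei came from w8, where the cluster labelled pericytes has no nuclei.

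Of group III, Grm7 encodes mGlu7, a receptor of the presynaptic active zone. NPC had 22.04 CPM in w1, 12.3 in w2 and 65.5 in w4, and NB1 had 475, 403 and 486 in the same libraries. The 2 clusters did not overlap, and Grm7 rose 22.5-fold (log2 4.49, SE 0.46, adjusted p = 7.84e-12). GCimm1 had 684 CPM in w1, 970.5 in w2 and 1176 in w4, 2.21-fold above NB1 (log2 1.14, SE 0.27, adjusted p = 0.00163), with every sum above those of NB1. GCimm2 had 1594 (w2), 1929 (w4) and 2125 CPM (w8), 1.92-fold above GCimm1 (log2 0.94, SE 0.28, adjusted p = 0.0189) and again without overlap. The first of these 2 steps was lost with DESeq2 and without w2, and the second with DESeq2, without w2, without w4 and at a fold of 2. No later step was called, as for Grm5. GCyoung held 2123 CPM in w4 and 2279 in w8, GCmat1 2024 in w1, 1886 in w4 and 2176 in w8, and GCmat2 2964 in w4 and 3132 in w8. The log2 differences were 0.38 (SE 0.31) from GCimm2 to GCyoung, -0.04 (SE 0.31) from GCyoung to GCmat1 and 0.46 (SE 0.31, adjusted p = 0.491) from GCmat1 to GCmat2. From RGL to GCmat1 the rise was 134-fold (log2 7.06, SE 0.34, adjusted p = 7.14e-25), with log2 values from 6.51 (thinned) to 8.00 (without w4) over 12 alternatives. For Grm5 it was 53.5-fold (log2 5.74, SE 0.27, adjusted p = 1.55e-25), with log2 values from 5.27 to 6.05.

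In RGL the Grm7 level was 3.48 (w1), 10.8 (w2), 46.4 (w4) and 31.9 CPM (w8). The cluster labelled pericytes, which is outside the neuronal lineage, had 30.5 CPM in w1 (3 UMIs) and 28.3 in w2 (6 UMIs), above RGL of the same libraries. Over all its nuclei it had 31.6 CPM (15.2 to 58.1). With 2 nuclei from w4 and none from w8, it gives no level to set against RGL of those libraries. NPC had 26.3 CPM (16.8 to 39.1) in all, and the intervals of NPC and of the cluster labelled pericytes overlap. The part of RNA from other nuclei in these values, and so in the folds from RGL to GCmat1 and from NPC to NB1, was not tested. Grm5 in RGL lay between 44.6 and 60.5 CPM in all 4 libraries.

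Grm8, which encodes mGlu8 of group III, had few UMIs, and many of them in few nuclei. In all, 656 nuclei held a Grm8 UMI, and 26.0% of the 1321 UMIs lay in 41 nuclei with at least 5 each. All 41 UMIs in the cluster labelled pericytes came from 1 nucleus of w1. Grm3 had 40.1% of its UMIs in such nuclei, which were 477 of the 3452 that held it, and Grm2 had none. Grm8 was called from RGL to NPC, where it went from 25.7 to 12.02 CPM in w1, from 20.7 to 12.3 in w2 and from 8.10 to 0 in w4 (log2 -1.47, SE 0.56, adjusted p = 0.0374), and the clusters overlapped across libraries. It was also called from NB1 to NB2, from 14.1 to 33.1 CPM in w1, from 11.5 to 23.9 in w2 and from 8.96 to 0 in w4, whose NB2 sum is 18 nuclei (log2 1.125, SE 0.32, adjusted p = 0.0381). The first call was lost in 7 and the second in 6 of 12 alternatives, both among them without w1 and without w2. At 2000 UMIs per nucleus Grm8 was found in 5.25% of NB2 nuclei (3.72 to 7.16%) and 2.01% of NB1 nuclei (1.496 to 2.64%). In GCmat1 the level was 134.5 CPM in w1 (21 UMIs of 17 nuclei), 6.10 in w4 and 16.8 in w8. Without its richest nucleus the w1 value was 89.5. The 9 nuclei of w2, too few to enter the test, held 32 UMIs. The log2 difference from RGL to GCmat1 was 0.66 (SE 0.37, adjusted p = 0.127), and it was -0.17 without w1, so that no direction is given. The fitted differences of 0.96 from GCyoung to GCmat1 (SE 0.34, adjusted p = 0.140) and 0.67 from GCmat1 to GCmat2 (SE 0.39, adjusted p = 0.398) were not called either, where GCmat2 was at 8.84 CPM in w4 and 35.2 in w8. Astro had 0 Grm8 UMIs, which allows up to 8.95 CPM (3 counts over all Astro nuclei), or 11.0 by the exact interval. RGL had 20.8 CPM (17.4 to 24.8) over all nuclei and 8.10 in w4, the latter under both limits. The adjusted p from Astro to RGL was 0.0512.

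Grm4, the remaining group III member, was listed at 0 in 6 of the 13 clusters. Its highest measured level was that of NB2, at 5.40 CPM (3.30 to 8.34), made of 17 UMIs in w1, 3 in w2 and 0 in w4. Of these UMIs 4 lay in 1 nucleus. Among the clusters at 0, the upper ends of the exact intervals of Astro, Oligo, OPC and the cluster labelled pericytes were 11.0, 16.8, 5.46 and 11.65 CPM. NB2 is therefore not shown to exceed these. The bounds of NPC and GCmat2 were 4.04 and 2.36. NB1 had 0.367 CPM (0.100 to 0.940), and the intervals did not overlap. Fitted without the filter on low counts, which was an alternative, the log2 difference from NB1 to NB2 was 3.63 (SE 0.81, adjusted p = 0.000819). The 15 NB2 nuclei with a Grm4 UMI were 2.07% of NB2 and lay at pseudo-times from 11.3 to 15.0. GCimm2 held 1.60 CPM, 6 UMIs each in w2 and w4, and GCmat1 of w8 held 17 UMIs at 0.671 CPM.

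Grm6, a group III gene outside the list, had 1 UMI in the cluster labelled pericytes and 1 in GCmat1.

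The authors' pseudo-time orders the nuclei on the trajectory from RGL to GCmat1 and was made from the same expression values, so the profile along it is a description. Expressed as a percentage of each gene's own level in GCmat1, Grm7 was ahead of Grm5 in the units that start at 9 to 13. Before these both were low, and in w2 Grm5 was ahead at 8, with 3.55% against 0.909%. Over all libraries Grm7 was ahead again at 20 (94.0% against 92.6%) and at 21 (104.8% against 103%). In the unit from 10 to 11, within NB1, Grm7 stood at 13.2% and Grm5 at 1.24%. From 12 to 13 they were at 26.1% and 8.84%, and from 13 to 14 at 30.8% and 22.1%. From 14 to 15 Grm5 had passed Grm7, with 36.5% against 25.2%. Both libraries with many neuroblasts showed this order. From 10 to 11, Grm7 was at 11.4% in w1 and 16.5% in w2, and Grm5 at 0.608% and 2.10%, from 267 and 136 nuclei. From 14 to 15, Grm7 was at 28.1% and 22.7% and Grm5 at 38.2% and 34.5%. Of the 2578 NB1 nuclei, 732 held UMIs of both Grm5 and Grm7, 704 of Grm7 alone, 472 of Grm5 alone and 670 of neither.

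**Figure D3:**
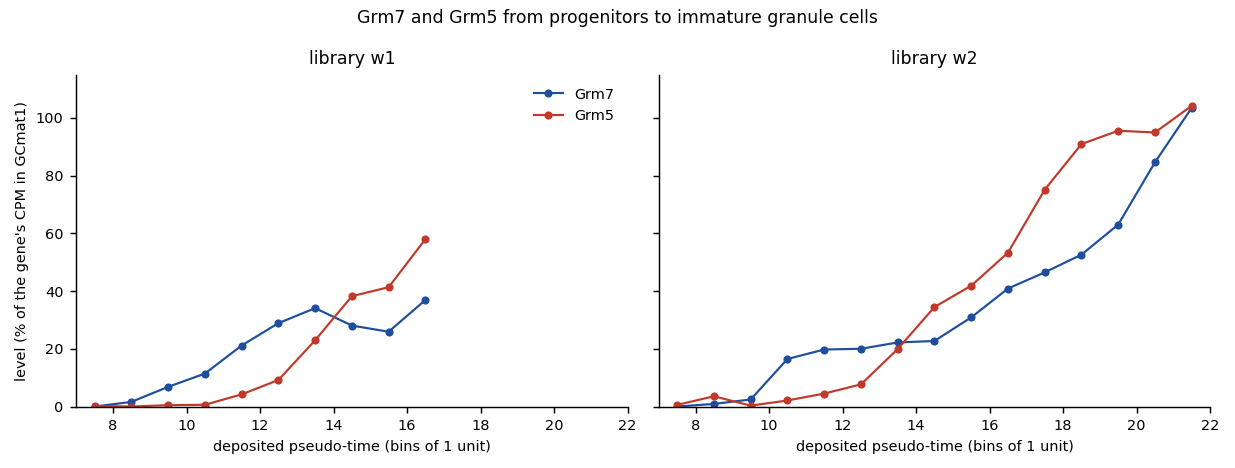
Level of Grm7 and Grm5 along the authors' pseudo-time, as a percentage of the CPM of the same gene in GCmat1, in w1 (left) and w2 (right), for bins of 1 unit with at least 20 nuclei. In both libraries Grm7 is ahead of Grm5 in the bins that start at 10 to 13 and behind it from 14 on.

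The same profile placed the Grm3 trough between 16 and 17, at 10.8 CPM (7.77 to 14.6), and its return between 20 and 22, with 74.6 and 125 CPM. Later it was 49.9 CPM from 29 to 30 and 71.5 (67.1 to 76.1) from 30 to 31, where most nuclei came from w8 (1140 and 1366). By the start of the bin, w4 had 121 CPM at 24, 90.2 at 25, 52.4 at 28, 59.25 at 29 and 179 at 30 (27 nuclei). In w8 it was 33.6 at 25 (37 nuclei), 44.7 at 28, 47.3 at 29 and 69.3 at 30. The libraries thus lay far apart at 25 and 30 and less so at 28 and 29. Grm7 also had an inner minimum. It was 2672 CPM from 24 to 25, 1749 from 28 to 29 and 2359 from 30 to 31, where w4 gave 2696, 1718 and 3113 (27 nuclei in the last) and w8 gave 1944 and 2348 for the last 2. Grm2 was at 35.3 CPM from 28 to 29, a bin with 668 of its nuclei from w4, and at 18.3 from 30 to 31. The place of its highest bin depended on the library, since w8 alone had 22.9 CPM from 28 to 29, 29.5 from 29 to 30 and 17.96 from 30 to 31, and w4 alone 37.5, 33.6 and 31.8. Grm4 had 17 UMIs and 8.32 CPM from 11 to 12, and between 0 and 1.82 CPM in every other bin of at least 20 nuclei. Of these 17 UMIs 16 came from w1 (11.6 CPM), 1 from w2 (1.74 CPM) and 0 from w4, where the bin holds 24 nuclei.

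**Figure D4:**
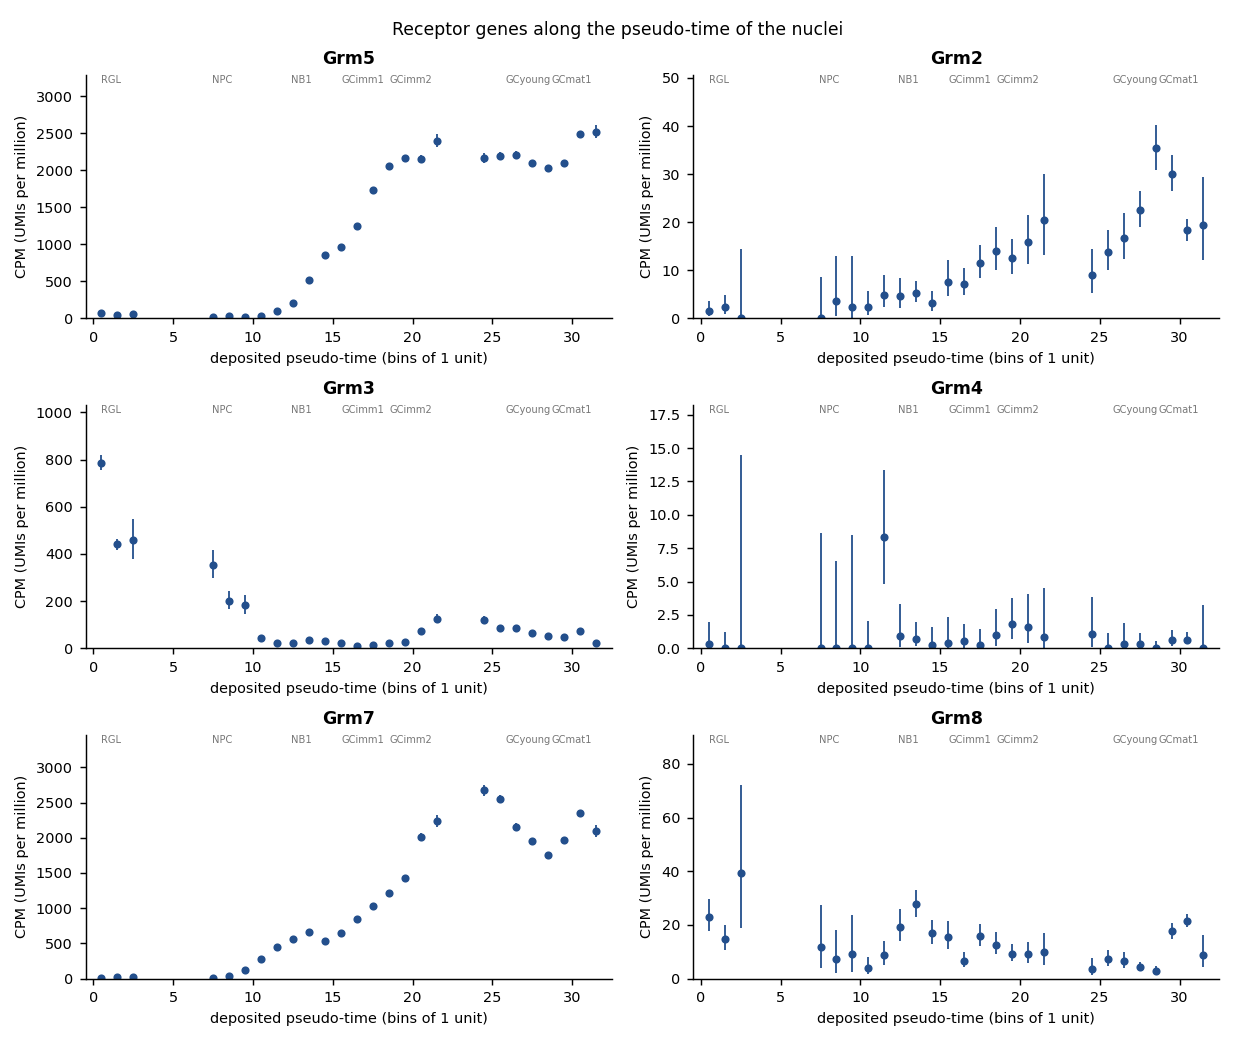
Level of each receptor gene (CPM, linear axes starting at 0) along the authors' pseudo-time in bins of 1 unit with at least 20 nuclei. Error bars are exact 95% Poisson intervals, and grey names stand at the median pseudo-time of a cluster. Grm5 and Grm7 are higher at 21 than at 10, with a dip of Grm7 at 14 (540 CPM after 659 at 13). By library, the dip is seen in w1 (729 to 600) and w4 (515 to 359, 30 nuclei at 14) and not in w2 (475 to 486). Grm3 has its lowest bin at 16 and stands above it from 20 on, the high Grm2 bin at 28 is mostly nuclei of w4, and the high Grm4 bin at 11 is 16 UMIs of w1 and 1 of w2.

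Among glia, Grm5 and Grm7 were high in OPC and Grm3 was low there. In OPC, Grm5 was at 1488 (w1), 1226 (w2), 1622 (w4) and 1827 CPM (w8), and Grm7 at 575, 759, 789 and 796.5. All of these values lay above the RGL sum of the same library, 30.2-fold for Grm5 (log2 4.92, SE 0.25, adjusted p = 8.69e-24) and 41.8-fold for Grm7 (log2 5.38, SE 0.33, adjusted p = 1.07e-20), the latter with log2 6.27 without w4. Of the 131 OPC nuclei 107 held UMIs of both. Grm3 was at 61.4 (w1), 9.73 (w2), 6.26 (w4) and 39.0 CPM (w8) in OPC, 20.2-fold below RGL (log2 -4.33, SE 0.36, adjusted p = 3.23e-15). From RGL to OPC thus 2 members rose and 1 fell, where 14.5% of 11548 genes rose and 15.2% fell. From Astro to OPC the same 3 genes were called, Grm5 up by 3.69, Grm7 up by 5.07 and Grm3 down with -5.40 on the log2 scale (SE 0.33, 0.56 and 0.38, adjusted p = 1.45e-13, 9.15e-11 and 1.38e-17), against 11.0% and 9.60% of all genes. The Grm5 change was 3.04 after thinning and 4.49 without w1. Adjusted p-values here come from edgeR fitted over all 13 clusters.

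Grm3 and Grm5 took opposite directions between OPC and Oligo. Grm3 was at 450.1 (w2), 867.5 (w4) and 1348 CPM (w8), above every OPC sum and 29.3-fold higher (log2 4.87, SE 0.42, adjusted p = 1.74e-14). Grm5 was at 0, 39.4 and 15.0 CPM in the same libraries, below every OPC sum, and fell by 6.52 on the log2 scale (SE 0.51, adjusted p = 7.35e-16). Without w4 this change was -7.95. These were the 2 members called from OPC to Oligo, 1 in each direction, where 6.70% of genes rose and 13.2% fell. Grm7 was at 244 (w2), 381 (w4) and 959 CPM (w8), which overlapped OPC (log2 -0.84, SE 0.34, adjusted p = 0.0740). A Grm7 UMI was found in 62.2% of the 45 Oligo nuclei (46.5 to 76.2%) and in 13.3% of nuclei of the cluster labelled pericytes (5.94 to 24.6%), at medians of 4801 and 5108 UMIs. At 2000 UMIs the shares were 44.4% (29.6 to 60%) and 5.00% (1.04 to 13.9%), and the intervals did not overlap. Oligo rests on 10 to 16 nuclei a library. Grm8 was at 0 of 219664 UMIs in Oligo, which allows up to 13.7 CPM (3 counts), or 16.8 by the exact interval. OPC had 31.1 CPM (19.25 to 47.5) from 21 UMIs in 9 nuclei. By library OPC had 7.67 (w1), 29.2 (w2), 12.5 (w4) and 66.8 CPM (w8), so that w1 and w4 lay under both limits. Of the 21 UMIs 12 came from 3 nuclei of w8.

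Per length of gene the ranking of the members changed. In GCmat1, the level per 100 kb of gene was 423 CPM for Grm5, 232 for Grm7, 177.5 for Grm2, 23.4 for Grm3, 2.00 for Grm8 and 0.657 for Grm4. Grm2 had 23.1 CPM against 2140 for Grm7 before this division. In RGL, Grm3 stood at 249 CPM per 100 kb and Grm2, Grm5 and Grm8 at 13.9, 10.1 and 2.42, from 11, 338 and 127 UMIs. In OPC, Grm5 stood at 278 and Grm7 at 80.4 CPM per 100 kb. How the yield of UMIs depends on length was not tested, so that the ranking is one of divided values and not of transcripts.

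Partners of the receptors were taken from lists by role. The counts below are read against the 24.6% of all genes that rose and the 24.9% that fell from RGL to GCmat1. Of 17 genes of Gq signalling (15 tested), 8 rose and 3 fell from RGL to GCmat1, with a median log2 change of 0.89 against 0.003 for all genes. Trpc4 and Trpc5, cation channels opened by this pathway, rose with log2 7.22 and 7.03, Itpr1, the calcium release channel gated by IP3, with 3.18, and Plcb1, the phospholipase, with 1.38. The 3 that fell, named after their values were seen, were Plcb4 with -6.77 and Plcb3 with -2.59, which are phospholipases too, and Itpr2, another IP3-gated channel, with -5.61. Trpc4 also rose from NB1 to NB2 (log2 2.26, SE 0.20, adjusted p = 1.54e-12). Of 12 scaffold genes of group I receptors, 9 rose and 1 fell (median 2.30), with Dlgap2 at 8.10, Dlgap1 at 3.47 and Shank2 at 1.87, while Homer2 fell by 2.17 on the log2 scale. Of 15 genes of Gi/o signalling 10 rose and 2 fell (median 1.34), the latter Gnao1 with -2.735 and Gnai2 with -2.43, G protein subunits also named after their values were seen. Kcnj6 and Kcnj3, subunits of the potassium channels that Gi/o proteins open, rose with log2 7.25 and 5.12. Adcy2, an adenylyl cyclase, was called in 6 of the 10 trajectory comparisons. Among them it fell from NPC to NB1 (log2 -1.60, SE 0.32, adjusted p = 6.85e-05) and rose from GCimm1 to GCimm2 (log2 1.57, SE 0.24, adjusted p = 2.31e-06). In these steps Grm3 was called in the same direction as Adcy2, while Grm5 and Grm7 were called up in both. A link between Adcy2 and a receptor gene was not tested.

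Of 5 partners of group III receptors, 2 rose from RGL to GCmat1 and none fell. Elfn1, an adhesion protein that binds group III receptors across the synapse and was low here (mean log2 CPM 0.61), rose from NB1 to GCimm1 (log2 2.97, SE 0.52, adjusted p = 1.76e-05) and fell by 5.22 on the log2 scale from GCimm2 to GCyoung (SE 0.69, adjusted p = 4.03e-08), a step at which Grm7 was not called. From RGL to OPC it rose by 7.18 (SE 0.68, adjusted p = 9.32e-13). Grip2 took the same 2 granule cell steps with 2.08 and -5.59. Of 6 genes that end receptor signalling 2 rose and 2 fell from RGL to GCmat1, among them Adrbk2, a receptor kinase, with -3.51. Of 4 genes of glutamate uptake and recycling 3 fell and 1 rose. Slc1a3, Glul and Slc1a2, the glial transporters and glutamine synthetase, fell by 6.20, 5.25 and 4.51 on the log2 scale where Grm3 fell by 2.75, and Slc1a1, the neuronal transporter, rose with 5.12.

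The genes whose profiles over the 29 sums of the trajectory were most like those of a member were found by Pearson correlation of log2 CPM, as a description over sums that share libraries and depth. For Grm5 they were Nrg2 (r = 0.967), Pclo (0.953) and Ntrk3 (0.952), and for Grm7 Nrg3 (0.971), Ntrk3 (0.970) and Cdh8 (0.964). For Grm3 they were Eya1 (0.931), Clybl (0.927) and Tjp1 (0.922), and for Grm2 a gene known only by a clone name (0.9502), Sertm1 (0.9497) and Syt7 (0.941). For Grm8, where many sums hold few UMIs, the highest values were 0.873 for Gm17202 and 0.863 for Ppp1ca. Between members r was 0.927 for Grm5 with Grm7, 0.840 for Grm2 with Grm7 and -0.697 for Grm3 with Grm7.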

How the data were processed

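Single-nucleus RNA-seq libraries of 4 weeks were analysed, each a pool of 4 mice, grouped by the time since tamoxifen. Per the labels, the authors aligned reads with STARsolo (2.7.4a in the submitters' processing notes) to GRCm38, counted UMIs over exons and introns and excluded reads that mapped to several places. The deposited counts are raw UMI counts per nucleus. The authors left out shallow or outlying nuclei, doublets (scDblFinder) and 2 outlying clusters of the w4 library, and their deposited log2 table holds counts over scran size factors with a pseudo-count of 1. It was used for cluster names and pseudo-time only. A total of 2679 of 17046 barcodes without a deposited cluster were left out of the comparisons.

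Counts of the nuclei of each cluster were added up within a library, keeping sums of at least 10 nuclei (29 sums and 13513 genes on the trajectory, 38 sums and 11548 genes over all 13 clusters for OPC and Oligo). edgeR 4.0.16 (filterByExpr, TMM, quasi-likelihood test, library and cluster as terms, Benjamini-Hochberg adjustment) ran in R 4.3.3, and called genes had a fold of at least 1.5 and an adjusted p of at most 0.05. Intervals of levels are exact Poisson and those of shares Clopper-Pearson, both at 95% and for counting error only. For a count of 0 a limit of 3 counts is also given, which is lower than the upper end of the exact interval. Shares were also taken after thinning to 2000 UMIs per nucleus. All members were described. From each list of partners up to 4 genes were eligible to be named, those called in most of the 10 trajectory comparisons with ties by mean log2 CPM, and for each member the 3 genes of highest Pearson correlation. The members and lists were chosen with earlier results of these data known. Alternatives were DESeq2 1.42.0, RLE factors, no library term, no filter, sums of at least 30 nuclei, thinning, a fold of 2, all 13 clusters and leaving out each library. The edgeR script was tested on simulated counts. Some results are not reported here.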

Additional observations from a re-analysis of the deposited data

Results flagged for a closer look

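Among 12 sets of 4 libraries looked at, 3 had a library far from the other 3. For continuous values chance flags about 1 in 20 sets. A set with UMIs in only 1 library is always flagged, as for Grm4 and Grm2 below. The count of 3 is therefore not read against that rate. Grm4 in RGL was 0.736 CPM in w4, from 1 UMI, and 0 in the other libraries. Grm2 in OPC was 12.5 CPM in w4, from 2 UMIs, and 0 in the others. Grm7 in OPC was low in w1, at 575 CPM, where the other libraries lay between 759 and 796.5.

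The 2679 barcodes without a deposited cluster entered no comparison and still held UMIs of every member. Their levels were 25.6 CPM for Grm2, 107 for Grm3, 1.02 for Grm4, 1826 for Grm5, 2665 for Grm7 and 39.95 for Grm8. Of these barcodes 1628 came from w4. Grm2 was 33.8 CPM in w4 and between 5.32 and 13.4 in the other libraries, Grm5 2067 against 594 to 2155, and Grm7 3335 against 797 to 2247. Grm3 was 69.1 CPM in w4 and between 160 and 217 in the others, Grm4 0.570 against 0.395 to 4.88, and Grm8 30.2 against 13.4 to 136.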

How the results depend on the processing

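Up to 12 alternatives were run for 48 log2 fold changes, which are the 30 called ones and others chosen to be printed. Of the 30 called, 18 were called in every alternative run. How many of all called genes stayed called was not counted, so the 18 have no background. The count of called members (main count in parentheses) changed by over 1.5 times as follows. Square brackets give all genes called under the same settings, in the order named. They are out of 13513, or 11548 with all 13 clusters, 9236 after thinning and 26804 without the filter (26883 for OPC to Oligo). It was 0 from NB1 to NB2 (1) without the library term, with DESeq2, with RLE factors and with all 13 clusters [189, 194, 435, 355], and 2 without the filter [451]. From GCimm2 to GCyoung (1) it was 0 under those same 4 settings [2233, 1834, 2643, 2268], after thinning [1724] and at a fold of 2 [1655]. From GCmat1 to GCmat2 (2) it was 0 without the library term, with DESeq2 and after thinning [671, 679, 468], and 1 with RLE factors, at a fold of 2 and with all 13 clusters [985, 725, 913]. From Astro to RGL (1) it was 2 with DESeq2, RLE factors, thinning and all 13 clusters [1208, 1309, 794, 1269], 3 without the filter [1361] and 0 at a fold of 2 [1132]. From NB1 to GCimm1 (4) it was 2 with DESeq2 and after thinning [1180, 1211], from RGL to NPC (3) 1 after thinning [2574] and from GCimm1 to GCimm2 (3) 1 at a fold of 2 [752]. Without the filter it was 1 from GCyoung to GCmat1 (0) [577] and 4 from OPC to Oligo (2) [2192]. The cause was not tested.

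Leaving out 1 library gave these counts of called members, with all genes called in parentheses (12503 to 14612 tested). There were 1 to 2 from Astro to RGL (813 to 1453), 1 to 3 from RGL to NPC (2730 to 4025) and 3 to 3 from NPC to NB1 (2550 to 4063). From NB1 to NB2 it was 0 to 1 (102 to 431), from NB1 to GCimm1 2 to 4 (780 to 1751) and from GCimm1 to GCimm2 1 to 3 (410 to 1286). From RGL to GCmat1 it was 4 to 5 (4998 to 6551). With 11976 to 12688 genes tested, there were 3 to 3 from RGL to OPC (2888 to 3152), 3 to 4 from Astro to OPC (1787 to 2198) and 2 to 4 from OPC to Oligo (1700 to 2253). No counts are given for comparisons with GCyoung or GCmat2, where leaving out w4 or w8 leaves 1 sum in a cluster. Log2 values from such fits are printed as sizes only.

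Signs turned 37 times, each time for a log2 value called on neither side. Of the values the report prints, these 14 turned. From GCyoung to GCmat1, Grm3 was 0.015 without the library term and 0.122 with DESeq2, Grm7 0.117 with DESeq2 and 0.022 with RLE factors, and Grm5 0.052 with sums of at least 30 nuclei. Grm8 from RGL to GCmat1 was -0.333 with those sums and -0.282 after thinning. Leaving out 1 library gave, from GCyoung to GCmat1, -0.126 to 0.057 for Grm5 (positive without w1), -0.311 to 0.613 for Grm3 (positive without w2 or w4) and -0.09 to 0.086 for Grm7 (positive without w4). It gave -0.172 (without w1) to 1.309 for Grm8 from RGL to GCmat1, -0.326 (without w8) to 0.88 for Grm8 from GCmat1 to GCmat2, and -0.48 (without w4) to 0.816 for Grm3 from GCimm2 to GCyoung. The other 23 belong to 10 differences not printed, such as Grm8 from GCimm2 to GCyoung (0.168, and negative under 6 settings). Another is Grm2 from RGL to OPC (0.856), where without w4 no Grm2 UMI is left in OPC and no fold can be read.

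The median over all genes from Astro to RGL was 0.27 with TMM and -0.001 with DESeq2. Sums of at least 30 nuclei could not be run for Astro to RGL, Astro to OPC and OPC to Oligo. Clusters were compared within libraries through the library term. No paired analysis was possible between weeks because each week is 1 library.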
